A study of Mus musculus with 8 samples.

Results

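The 33 microglial genes described here were taken as a named list, and all 33 were found by exact gene symbol among the 21959 genes of the deposited mouse brain expression table. They cover the receptors, complement chains, adaptors, transcription factors and lysosomal proteins by which microglia are usually recognised. Polyadenylated RNA was sequenced in 8 libraries in a study of sleep and isoliensinine, an alkaloid from lotus. In the Model group (n = 4 libraries) the mice were labelled wild type and treated with PCPA (para-chlorophenylalanine, which blocks serotonin synthesis). In the IsoL group (n = 4 libraries) they were labelled wild type and treated with isoliensinine. The series text describes female ICR mice dosed over 7 days, a pentobarbital test after the last dose and isolation of the hypothalamus. Each library itself carries the tissue label brain. Isoliensinine doses of 12.5, 25 and 50 mg/kg are listed, but the sources used here do not give the dose that was sequenced, whether IsoL mice also received PCPA, or their age. Untreated and alprazolam mice were not analysed here, so every direction is IsoL relative to Model. No label says whether each library is a different mouse, so the p-values cover the spread among these 8 libraries and that spread may be technical.

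Microglia are the resident macrophages of the brain. They depend on signalling through the colony-stimulating factor receptor Csf1r and on the transcription factor PU.1 (gene Spi1), and they survey the tissue with receptors for nucleotides and chemokines. They clear debris and synapses with the help of complement C1q, of the receptor TREM2 with its adaptor DAP12 (gene Tyrobp), and of lysosomal proteases such as cathepsin S.

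Because PU.1 binds a purine-rich element called the PU box, the stretches just before the start sites of 8 of the genes on which the results below turn are shown first. They come from RefSeq on GRCm38.p6, run 5′ to 3′ on the gene's own strand and end at the base before the start site. Capitals mark the PU box, searched as GAGGAA on both strands, so that TTCCTC is the box on the opposite strand. The regions are chr17:35176053-35176152 (minus strand) for Aif1, chr4:136886201-136886300 (minus) for C1qb, chr17:48346301-48346400 (plus) for Trem2, chr4:130913216-130913315 (plus) for Laptm5, chr1:171059404-171059503 (minus) for Fcgr3, chr3:95526616-95526785 (plus) for Ctss, chr9:120068297-120068396 (minus) for Cx3cr1 and chr2:128698815-128698914 (plus) for Mertk.
Aif1: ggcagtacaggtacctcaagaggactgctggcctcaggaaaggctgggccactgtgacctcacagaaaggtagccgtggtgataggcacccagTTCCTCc
C1qb: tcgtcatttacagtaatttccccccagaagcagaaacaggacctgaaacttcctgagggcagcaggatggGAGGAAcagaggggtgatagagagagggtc
Trem2: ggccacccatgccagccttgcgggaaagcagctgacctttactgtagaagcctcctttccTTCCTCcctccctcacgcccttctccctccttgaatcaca
Laptm5: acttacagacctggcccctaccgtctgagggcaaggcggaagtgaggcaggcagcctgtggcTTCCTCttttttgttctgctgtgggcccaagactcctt
Fcgr3: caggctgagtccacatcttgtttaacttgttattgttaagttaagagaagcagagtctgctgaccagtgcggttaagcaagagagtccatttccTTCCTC
Ctss: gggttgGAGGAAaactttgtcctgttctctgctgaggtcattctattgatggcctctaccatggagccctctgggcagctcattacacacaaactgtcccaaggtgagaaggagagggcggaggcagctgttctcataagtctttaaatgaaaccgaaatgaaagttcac
Cx3cr1: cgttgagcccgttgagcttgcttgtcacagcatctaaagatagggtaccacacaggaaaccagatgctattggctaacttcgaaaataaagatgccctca
Mertk: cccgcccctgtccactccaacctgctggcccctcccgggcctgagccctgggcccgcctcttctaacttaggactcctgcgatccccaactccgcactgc

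The box began 6 bases before the start site in Fcgr3, 7 in Aif1, 30 in C1qb, 38 in Laptm5, 40 in Trem2 and 164 in Ctss. It did not occur in the 250 bases before the start of Cx3cr1 or Mertk. Of the 33 genes, 24 matched the RefSeq promoter table, and 14 of these (58.3%) held a PU box within 250 bases before at least 1 start site. Over all 27025 genes with such a window the share was 25.9%. In 9 of the 24 genes (Aif1, C1qb, Cd53, Fcgr3, Hpgds, Itgam, Laptm5, P2ry13 and Trem2) it began within 50 bases of the start. A composite element for PU.1 with an interferon regulatory factor, searched as GGAA, any 2 bases and GAAA on both strands, was in 0 of the 29 windows of these genes and in 2.3% of all 32851 windows, so it overlapped no PU box here. These matches are letters in a window and show no binding. The genes Tmem119, Csf1r, C1qa, Tyrobp, Itgb2, Gpr34, Selplg, Spi1 and Trem3 were not matched.

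Some features of the libraries come before the results. Summed counts ran from 14262836 to 21620466 per library, with the most in IsoL 4. The 4 Y-linked genes examined summed to between 4330 and 6779 counts in every library, against the stated female sex. Model 2 stood apart: its counts differed from those of any other library by a chi-square of 11.4 to 15.9 per degree of freedom, while pairs without it gave 2.58 to 10.1. The summed level of 8 choroid plexus markers was 748 and 642 CPM (counts put on a per-library scale that corrects for depth) for IsoL 1 and 2. It was 87.7 CPM for IsoL 3, 36.9 CPM for IsoL 4 and 25.9 to 39.0 CPM for Model. Hypothalamic regional markers summed to 243 to 288 CPM in Model and 115 to 206 in IsoL, so the groups did not overlap. The part of these features in the results below was not tested, beyond the fits that leave libraries out.

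No microglial gene passed the test between the groups. Of the 33, 32 had enough counts to be tested and Trem3 did not. At an adjusted p under 0.05 in edgeR's quasi-likelihood test, 0 of the 32 passed, where 0.275% of all 14536 genes tested did (0.117% higher and 0.158% lower). DESeq2 and limma voom also called 0 of the 32, against 2.14% and 1.64% of all genes (1.11% and 0.764% higher). At an unadjusted edgeR p under 0.05 there were 5 (Mertk, Aif1, Laptm5, C1qa and Cx3cr1), 15.6% of the 32, close to the 13.2% of all genes. All 5 were above Model and 0 below, where 6.44% of all genes were above and 6.78% below at that p. DESeq2 and limma voom each had 6 members at an unadjusted p under 0.05, where the shares of all genes were 12.3% and 16.4%.

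Most of the fitted differences were small and positive. In 26 of the 32 genes the IsoL value was above Model, against 49.5% of all genes tested, and the median log2 fold change was 0.12, against -0.0015 over all genes. These are descriptions of a list whose members share cells, not tests. Together the 33 genes took 460, 425, 467 and 470 CPM in Model 1 to 4 and 475, 447, 522 and 572 CPM in IsoL 1 to 4. The group values were 455 ± 20.8 and 504 ± 55.0 CPM (mean ± SD, n = 4), with IsoL 2 inside the Model range and IsoL 3 and 4 above it. Without IsoL 4 the median log2 fold change was 0.0629. Members with an unadjusted p under 0.05 numbered 2 without IsoL 4 (11.3% of all genes), 3 without IsoL 3 (11.3%), 3 without Model 2 (14.3%) and 5 to 7 without any other single library (10.0% to 13.5%). There were 8 with the replicate number as a block (12.4%) and 10 without both IsoL 1 and 2 (8.58%). The fit without both was added after the data were seen. It keeps IsoL 3 and 4, already seen to have the highest summed levels, so its count carries no test. In bulk tissue, fewer cells of a type and less RNA per cell cannot be told apart.

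**Figure D1:**
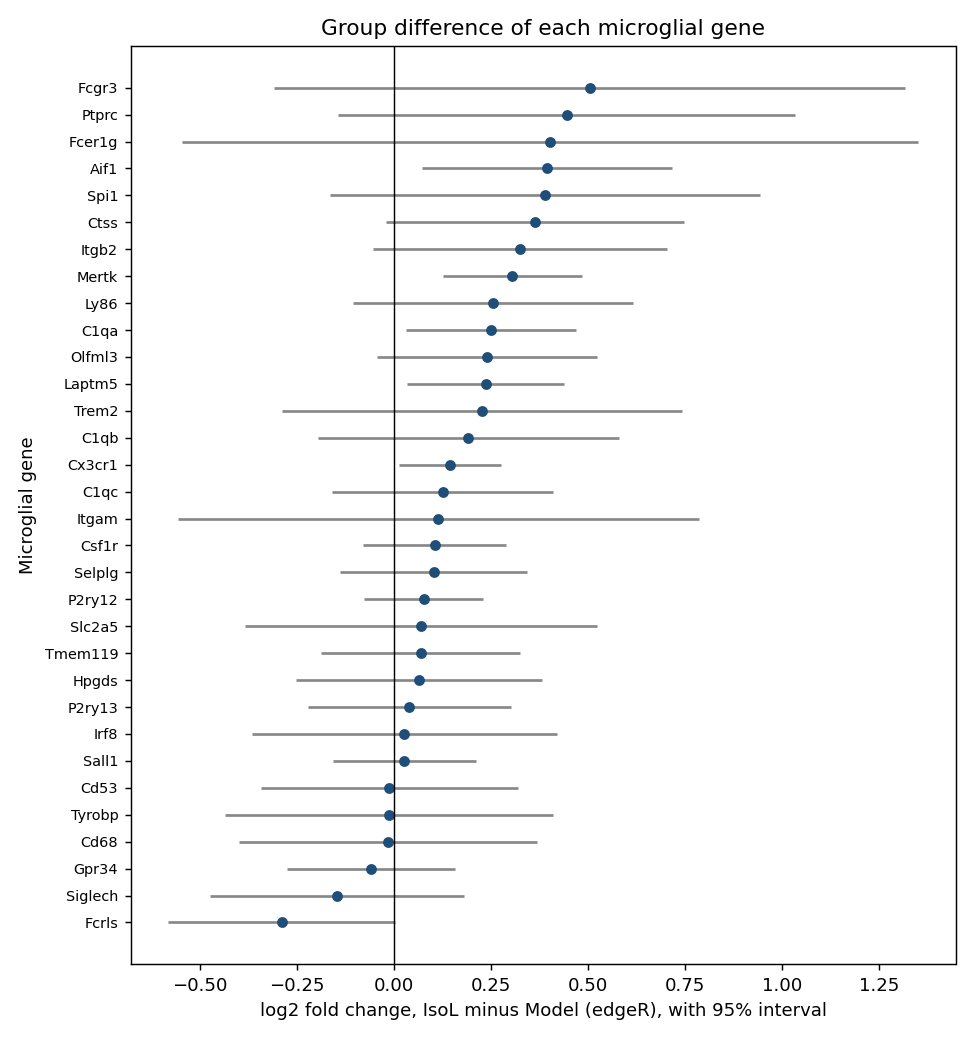
Group difference of each of the 32 tested microglial genes. The x axis is the edgeR log2 fold change, IsoL minus Model, and lines are 95% intervals; 26 points lie right of 0, and Mertk, Aif1, Laptm5, C1qa and Cx3cr1 have intervals clear of it before adjustment over all genes.

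Levels per gene length were set by the deposited FPKM (reads scaled for gene length and for library depth). Cathepsin S (Ctss), a lysosomal protease, was the most abundant at 37.1 ± 8.89 FPKM (mean ± SD over 8 libraries). It was followed by C1qa at 22.2 ± 3.35, P2ry12 at 15.7 ± 1.11, C1qb at 10.9 ± 2.38, Csf1r at 10.4 ± 1.08 and Cx3cr1 at 9.43 ± 0.658. The last 3 lay within each other's spread. At the low end stood Irf8 at 0.546 ± 0.0849 FPKM and Ptprc at 0.372 ± 0.132. The defining markers P2ry12, Tmem119, Cx3cr1 and Csf1r were thus read in all 8 libraries.

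**Figure D2:**
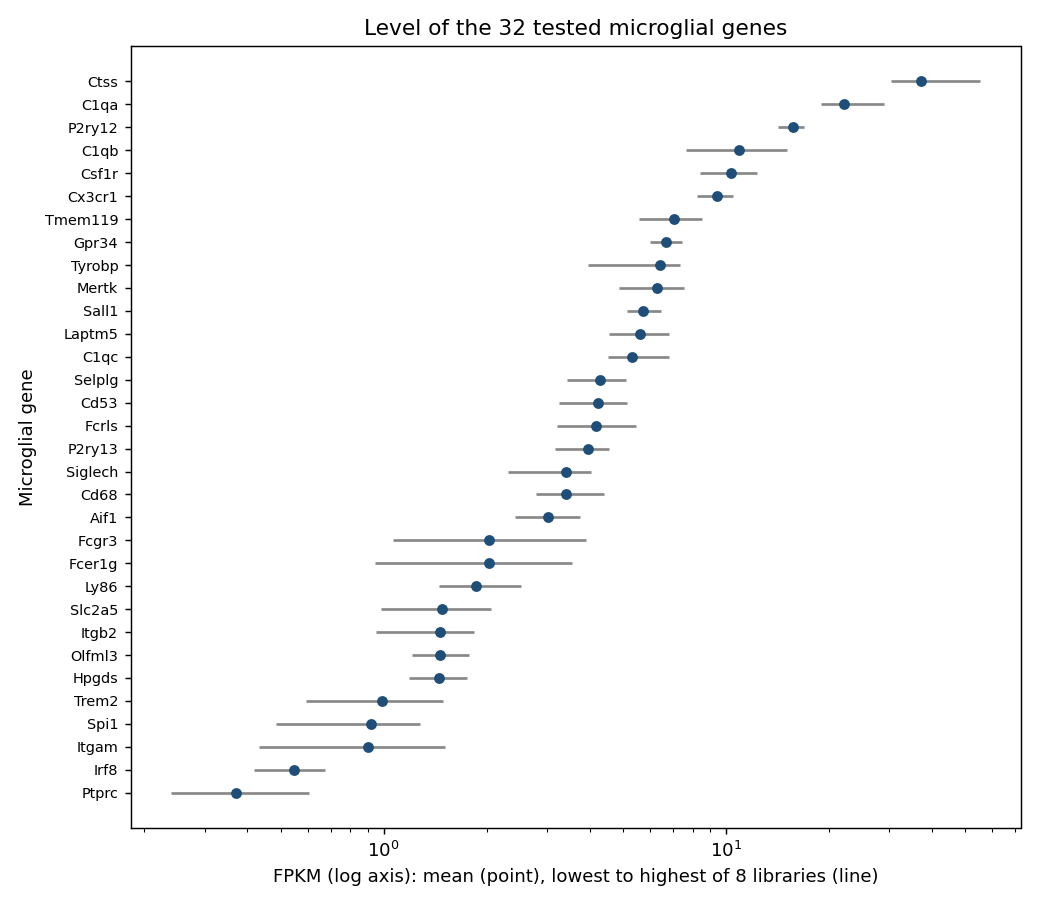
Level of the 32 tested microglial genes. The x axis is FPKM on a log scale, points are means over the 8 libraries and lines run from the lowest to the highest library; Ctss is at the top with 37.1 FPKM and Ptprc at the bottom with 0.372.

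Among the sensing receptors, Mertk had the smallest p of the list and did not overlap between the groups. Mertk (chromosome 2, 128540876 to 128644814 in the deposited table, for which the sources used here name no build) is a receptor kinase for the clearance of dying cells, present in microglia and also in astrocytes. Its GRCm38.p6 stretch shown above starts at 128698815, beyond the end of that span, so deposited and GRCm38.p6 positions cannot be combined. Mertk was at 23.9, 21.0, 26.0 and 26.9 CPM in Model 1 to 4 and at 28.7, 29.9, 32.6 and 29.6 CPM in IsoL 1 to 4. Every IsoL library was above every Model library. The log2 fold change was 0.30 (SE 0.08, 95% interval 0.13 to 0.48, edgeR adjusted p = 0.135; adjusted p = 0.0591 in DESeq2 and 0.0989 in limma voom), which did not pass. The summed level of 10 astrocyte markers was also separated, at 3978 to 4480 CPM in Model and 4625 to 4730 in IsoL. Of the 10, 2 had all IsoL libraries above all Model libraries, against 4.04% of all genes. Their median log2 change was 0.061 (range -0.20 to 0.29), and 0 passed in edgeR and 1 in DESeq2 (Aqp4). The part of astrocytes in the Mertk value was not tested.

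Cx3cr1, the receptor for the neuronal chemokine fractalkine, was the second receptor without overlap. It was at 41.7, 37.0, 41.5 and 41.3 CPM in Model and 44.5, 42.9, 44.1 and 46.7 CPM in IsoL. Model 2 was the lowest library, and the difference was small (log2 0.14, SE 0.06, edgeR adjusted p = 0.328). The table's Cx3cr1 entry spans other genes (Wdr48, Gorasp1, Ttc21a, Csrnp1 and Xirp1), and no strand marking is stated, so reads there may not be separable.

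The purinergic receptor P2ry12, by which microglial processes move toward ATP and which is lost from activated cells, overlapped between the groups. Its levels were 43.2, 37.7, 35.9 and 38.6 CPM in Model and 41.2, 37.2, 42.9 and 42.6 CPM in IsoL. The 95% interval of its fold was 0.948 to 1.17. Its neighbour P2ry13 was at 9.85 ± 0.580 and 10.1 ± 1.5 CPM and Gpr34, a lysophospholipid receptor, at 14.3 ± 1.29 and 13.7 ± 1.28 CPM. Both P2ry genes lie within Med12l, and Gpr34 within Cask, on the opposite strand, so their reads are likewise uncertain, as are those where Csf1r overlaps Hmgxb3. Csf1r, on which microglial survival depends, was at 59.5, 48.2, 61.2 and 61.7 CPM in Model and 59.3, 57.6, 60.1 and 70.4 CPM in IsoL, with Model 2 below all other libraries and IsoL 4 above them (log2 0.10, 95% interval -0.08 to 0.29, edgeR adjusted p = 0.634). Of the 6 receptors, 0 passed.

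Genes used to tell resting microglia from other macrophages overlapped between the groups throughout. Tmem119, a surface protein of resident microglia, was at 16.7, 17.8, 12.8 and 16.5 CPM in Model and 16.1, 14, 17.1 and 19.5 CPM in IsoL (log2 0.07, 95% interval -0.19 to 0.32). Fcrls, an Fc receptor-like scavenger gene, had the lowest fitted difference of the list. Its levels were 8.32, 12.6, 11.6 and 10.4 CPM in Model and 7.55, 9.56, 8.60 and 9.39 CPM in IsoL, so that only Model 1 lay inside the IsoL range (log2 -0.29, SE 0.14, edgeR adjusted p = 0.380). Siglech, a sialic acid-binding receptor, was at 11.2 to 12.7 CPM in Model, 7.85 and 9.44 in IsoL 1 and 2 and 12.8 and 13.5 in IsoL 3 and 4. The IsoL libraries thus lay on both sides of the Model libraries. Olfml3, a secreted protein, was at 8.26 ± 0.499 and 9.73 ± 1.62 CPM, and Selplg, the ligand of P-selectin, at 17.7 ± 2.28 and 19.0 ± 2.39 CPM. Slc2a5, a fructose transporter, was at 4.94 ± 1.73 and 5.17 ± 0.421 CPM. Of these 6 genes, 0 passed, 4 were above Model and 2 below.

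The 3 chains of complement C1q, which tags synapses and debris for removal, are encoded side by side on chromosome 4 (136607440 to 136626114 from the start of C1qb to the end of C1qa in the deposited table). C1qa was at 21.1, 19.6, 21.9 and 21.9 CPM in Model and 23.2, 20.9, 26.4 and 29.8 CPM in IsoL. C1qb was at 11.5, 10.4, 10.2 and 12.4 CPM in Model and 11.2, 8.40, 14.7 and 16.3 CPM in IsoL. C1qc was at 9.51, 8.69, 11.5 and 9.77 CPM in Model and 9.02, 9.62, 11.2 and 13 CPM in IsoL. For all 3 chains IsoL 4 was the highest library, while IsoL 2 lay within or below the Model range. The fitted log2 changes were 0.25 (95% interval 0.03 to 0.47), 0.19 (-0.20 to 0.58) and 0.12 (-0.16 to 0.41), with edgeR adjusted p = 0.312, 0.687 and 0.727.

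Receptors and adaptors that signal through ITAM motifs varied widely between libraries. Fcgr3, an activating receptor for IgG, was at 1.89, 2.56, 4.03 and 3.26 CPM in Model and 2.27, 2.49, 4.99 and 6.73 CPM in IsoL. Fcer1g, the signalling chain that Fc receptors share, was at 0.839, 1.44, 2.36 and 1.49 CPM in Model and 0.982, 0.985, 3.10 and 2.98 CPM in IsoL. In both genes IsoL 3 and 4 were the 2 highest libraries and IsoL 1 and 2 lay within the Model range, so the intervals were wide (log2 0.50, -0.31 to 1.32, and 0.40, -0.55 to 1.35). Model 3 and 4 were also above Model 1 and 2 in both genes. With the replicate number as a block the edgeR adjusted p was 0.445 for Fcgr3 and 0.687 for Fcer1g. The Fcgr3 value is uncertain, since parts of its sequence are nearly identical to the inhibitory receptor gene Fcgr2b, between which reads can be split.

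Trem2, the lipid-sensing receptor of phagocytic microglia, was at 5.80, 4.07, 3.96 and 4.28 CPM in Model and 2.95, 4.98, 5.82 and 7.28 CPM in IsoL, where IsoL 1 was the lowest of all 8 libraries and IsoL 4 the highest. Its adaptor Tyrobp was at 4.89, 4.82, 4.87 and 2.65 CPM in Model and 3.74, 4.52, 4.30 and 4.49 CPM in IsoL, and only Model 4 stood apart. Their log2 changes were 0.23 (95% interval -0.29 to 0.74) and -0.01 (-0.44 to 0.41), and neither passed. Trem3, a further partner of DAP12 in macrophages, had 2 counts in Model 3 and 0 counts in each other library; 3 counts, the limit that a count of 0 allows, correspond to 0.137 to 0.210 CPM and cover counting error only.

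The integrin chains Itgam (CD11b) and Itgb2 (CD18) form complement receptor 3. Itgam was at 4.12, 7.57, 2.16 and 3.46 CPM in Model and 5.34, 4.23, 5.12 and 4.21 CPM in IsoL, so the Model libraries held both its highest and its lowest value. Its entry shares 55809 bases with Gm49368 on the same strand, so the Itgam reads are uncertain too. Itgb2 was at 4.33, 2.88, 4.52 and 4.14 CPM in Model and 4.79, 4.17, 5.31 and 5.54 CPM in IsoL (log2 0.33, SE 0.18, edgeR adjusted p = 0.457). Among the transcription factors, Spi1 was at 1.33, 1.94, 3.13 and 2.17 CPM in Model and 2.95, 2.14, 3.41 and 2.75 CPM in IsoL, with overlap between the groups (log2 0.39, 95% interval -0.16 to 0.94, edgeR adjusted p = 0.553). Irf8, a partner of PU.1, was at 3.83 ± 0.731 and 3.88 ± 0.508 CPM. Sall1, which maintains microglial identity, was at 29.9 ± 3.25 and 30.4 ± 2.39 CPM (95% interval of the fold 0.896 to 1.16).

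Cathepsin S divided the IsoL group. Ctss (chromosome 3, 95434097 to 95463714 in the deposited table) was at 43.1, 44.4, 44.0 and 45.1 CPM in Model and at 48.0, 41.5, 62.6 and 74.4 CPM in IsoL. The Model libraries lay close together, IsoL 1 and 2 lay near them, and IsoL 3 and 4 were far above. Across all 8 libraries it did not pass (log2 0.36, SE 0.17, edgeR adjusted p = 0.405). Of all fits run, it was called in 1, when IsoL 1 and 2, the libraries with high choroid plexus markers, were left out (log2 0.64, edgeR adjusted p = 0.0104). In that fit 0.21% of all genes were called; it was added after the data were seen and keeps 2 IsoL libraries, in which Ctss was already seen to be high. Laptm5, a lysosomal membrane protein of blood-derived lineages, was at 20.5, 17.1, 19.5 and 21.2 CPM in Model and 22.2, 20.2, 24.1 and 25.6 CPM in IsoL (log2 0.24, SE 0.09, edgeR adjusted p = 0.304). Cd68, a lysosomal protein of phagocytes, was at 4.30 ± 0.837 and 4.25 ± 0.592 CPM and had none of this pattern.

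Of the markers shared with other leukocytes, Aif1 was the third gene without overlap. Aif1 encodes the calcium-binding protein Iba1, the usual stain for microglia. It was at 3.84, 4.63, 3.68 and 3.87 CPM in Model and 5.77, 5.45, 5.25 and 4.67 CPM in IsoL, on 239 and 373 summed counts, so Model 2 and IsoL 4 nearly met (log2 0.39, SE 0.15, edgeR adjusted p = 0.282). In Aif1, IsoL 4 was the lowest of its group, the opposite of the order in Ctss. Ptprc (CD45), a phosphatase of all white blood cells, was at 4.47, 4.75, 7.02 and 6.85 CPM in Model and 5.03, 5.68, 9.61 and 10.9 CPM in IsoL, again with IsoL 3 and 4 on top (log2 0.45, 95% interval -0.14 to 1.03, edgeR adjusted p = 0.508). Model 3 and 4 were likewise above Model 1 and 2. The unadjusted edgeR p of Ptprc was 0.124 without a block and 0.0139 with the replicate number as a block (adjusted p = 0.270). Same-numbered libraries correlated only weakly (0.0199 to 0.0696), so the block may not be a real pairing. Ly86, which pairs with a Toll-like receptor homologue, was at 6.16 ± 0.985 and 7.34 ± 1.52 CPM and the tetraspanin gene Cd53 at 7.41 ± 1.27 and 7.32 ± 1.14 CPM. Hpgds, which makes prostaglandin D2 in microglia, was at 9.16 ± 1.76 and 9.54 ± 1.32 CPM (log2 0.06, 95% interval -0.25 to 0.38).

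**Figure D3:**
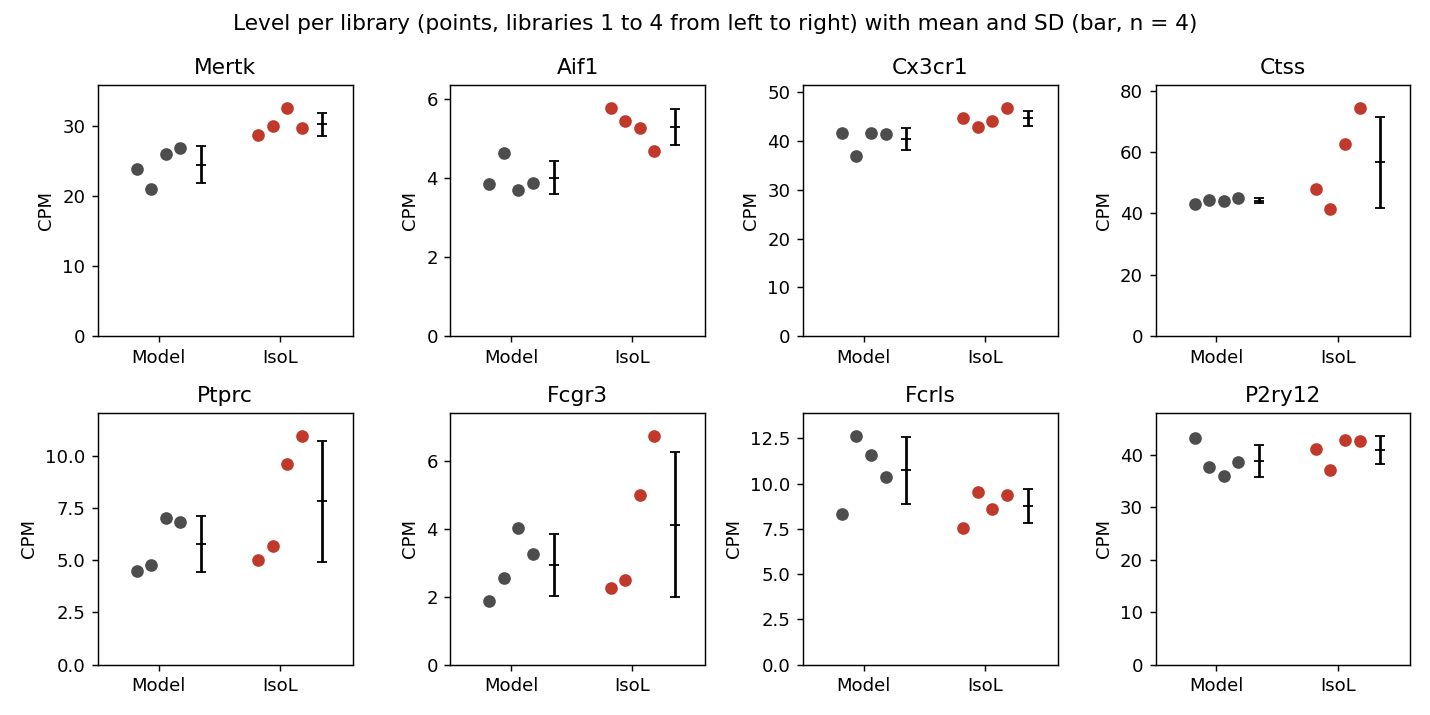
CPM per library for 8 microglial genes. Points are libraries 1 to 4 of each group from left to right and bars give mean and SD (n = 4); Mertk, Aif1 and Cx3cr1 do not overlap between groups, Ctss, Ptprc and Fcgr3 are highest in IsoL 3 and 4, and Fcrls and P2ry12 overlap.

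Of the 32 genes, 3 had all IsoL libraries above all Model libraries (Mertk, Cx3cr1 and Aif1; 9.38%, against 4.04% of all genes tested). In 0 genes were all IsoL libraries below, against 4.44% of all genes. Without IsoL 2 the first count was 7 (21.9%, against 5.68% of all genes in the same comparison). With any other library left out it was 3 or 4, against 5.56% to 6.52% of all genes. The second count was 1 without Model 1 or Model 4, against 6.47% and 6.29%, and otherwise 0. Single libraries often held the extreme values of a gene. IsoL 4 was the highest library in 16 of the 32 genes (50%), where it was the highest for 9.97% of all genes tested. Model 2 was the lowest in 13 (40.6%), against 22.6% of all genes. IsoL 3 and 4 were the highest pair in 12 genes (C1qa, C1qb, Trem2, Itgb2, Siglech, Laptm5, Ctss, Selplg, Ly86, Fcer1g, Fcgr3 and Ptprc; 37.5%, against 4.63% of all genes), and the lowest pair in 0, against 4.66%. The pair was chosen after its values were seen, so this count carries no test. The median ratio of a member to its Model mean in IsoL 1 to 4 was 1.02, 0.971, 1.13 and 1.21, where all genes tested had medians between 0.996 and 0.997.

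**Figure D4:**
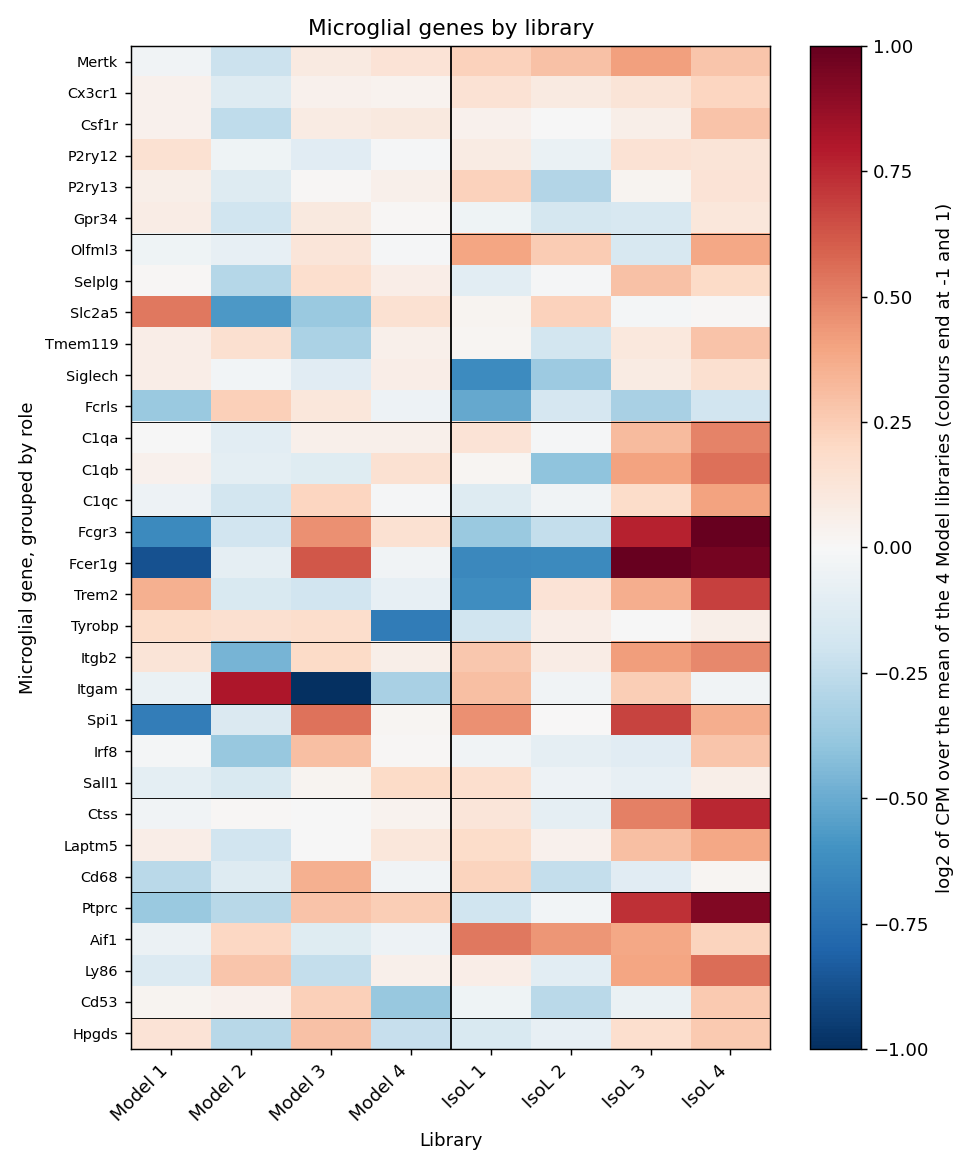
The 32 tested genes in each library, grouped by role. Colour is the log2 of CPM over the mean of the 4 Model libraries and ends at -1 and 1; the IsoL 3 and IsoL 4 columns hold most of the deep red cells, IsoL 1 and 2 do not, and Itgam and Slc2a5 vary mainly within Model.

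Markers of other immune cells were read beside the list. T cell genes were at the edge of detection in 6 libraries and above it in IsoL 3 and 4. Cd3g, a chain of the T cell receptor complex, had 0 counts in each Model library, 1 and 1 in IsoL 1 and 2, and 8 and 12 in IsoL 3 and 4. Cd8a, the co-receptor of cytotoxic T cells, had 0, 0, 0 and 1 counts in Model and 0, 0, 9 and 13 in IsoL. The 11 lymphocyte genes found in the table summed to 0.279 to 1.22 CPM in Model, 0.859 and 0.521 in IsoL 1 and 2, and 3.16 and 3.07 in IsoL 3 and 4; 0 of them had enough counts to be tested, and the B cell gene Ms4a1 had at most 2 counts in any library. IsoL 3 and 4 were thus the highest libraries of this sum, as for Ptprc, Fcgr3 and Ctss, though the order within that pair differed. The part of lymphocytes in the Ptprc, Fcgr3 and Ctss values was not tested.

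Genes of MHC class II, with which microglia, macrophages and B cells present antigen, were high in the same pair of libraries. Cd74, the invariant chain, was at 1.26, 3.5, 3.89 and 2.92 CPM in Model and 2.39, 2.49, 16.5 and 19.1 CPM in IsoL. H2-Aa was at 0.210 to 1.04 CPM in Model, 0.307 and 0.290 in IsoL 1 and 2, and 4.99 and 8.57 in IsoL 3 and 4. Of the 9 genes of that list, 0 passed (median log2 change 0.39). IsoL 3 and 4 were the highest pair in 4 (H2-Aa, H2-Ab1, H2-Eb1 and Cd74), against 4.63% of all genes. In the fit without IsoL 1 and 2, H2-Aa, H2-Ab1, Cd74 and B2m, the light chain of MHC class I, were called. In that fit 0.21% of all genes were called. It was added after the data were seen and keeps IsoL 3 and 4, in which H2-Aa and Cd74 were already seen to be high. These calls are therefore no separate test.

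Macrophages at the borders of the brain had higher marker sums in libraries 3 and 4 of both groups, with Model 3 highest. Their 10 markers summed to 20.9, 23.7, 42.1 and 34.5 CPM in Model and 27.5, 23.0, 29.0 and 34.1 CPM in IsoL, and of 8 tested 0 passed (median log2 change -0.16). Mrc1 and Cd163, the scavenger receptors that define them, were at 5.66 to 11.7 and 3.01 to 5.01 CPM in Model and at 5.91 to 10.1 and 2.49 to 3.94 CPM in IsoL. For monocytes and neutrophils 2 of 11 genes were tested and 0 passed, and the neutrophil gene Ly6g had 1 count in all libraries together. Of the 7 mast cell genes, Kit alone was tested and did not pass; neurons also express it, and Cpa3 had at most 7 counts in a library. Of 5 red cell genes, 4 were tested and 0 passed. Their sum was 107 to 124 CPM in Model, 103 and 93.7 in IsoL 1 and 2, and 136 and 148 in IsoL 3 and 4, so red cell transcripts were also highest in that pair.

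Of the other brain cells, 0 of 10 oligodendrocyte markers, 0 of 6 markers of their precursors, 0 of 10 of neurons, 0 of 9 of endothelial cells and 0 of 9 of mural cells passed in edgeR, with median log2 changes between -0.020 and 0.11. Of the choroid plexus markers 0 of 7 tested passed in edgeR (median 1.79), while DESeq2 called 4, all higher (Ttr, Folr1, Otx2 and F5), and limma voom 0. Of 17 hypothalamic markers edgeR called 1 (Pmch, a feeding peptide gene, log2 -0.89, edgeR adjusted p = 0.0471; median -0.64), DESeq2 6 and limma voom 4, all lower.

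**Figure D5:**
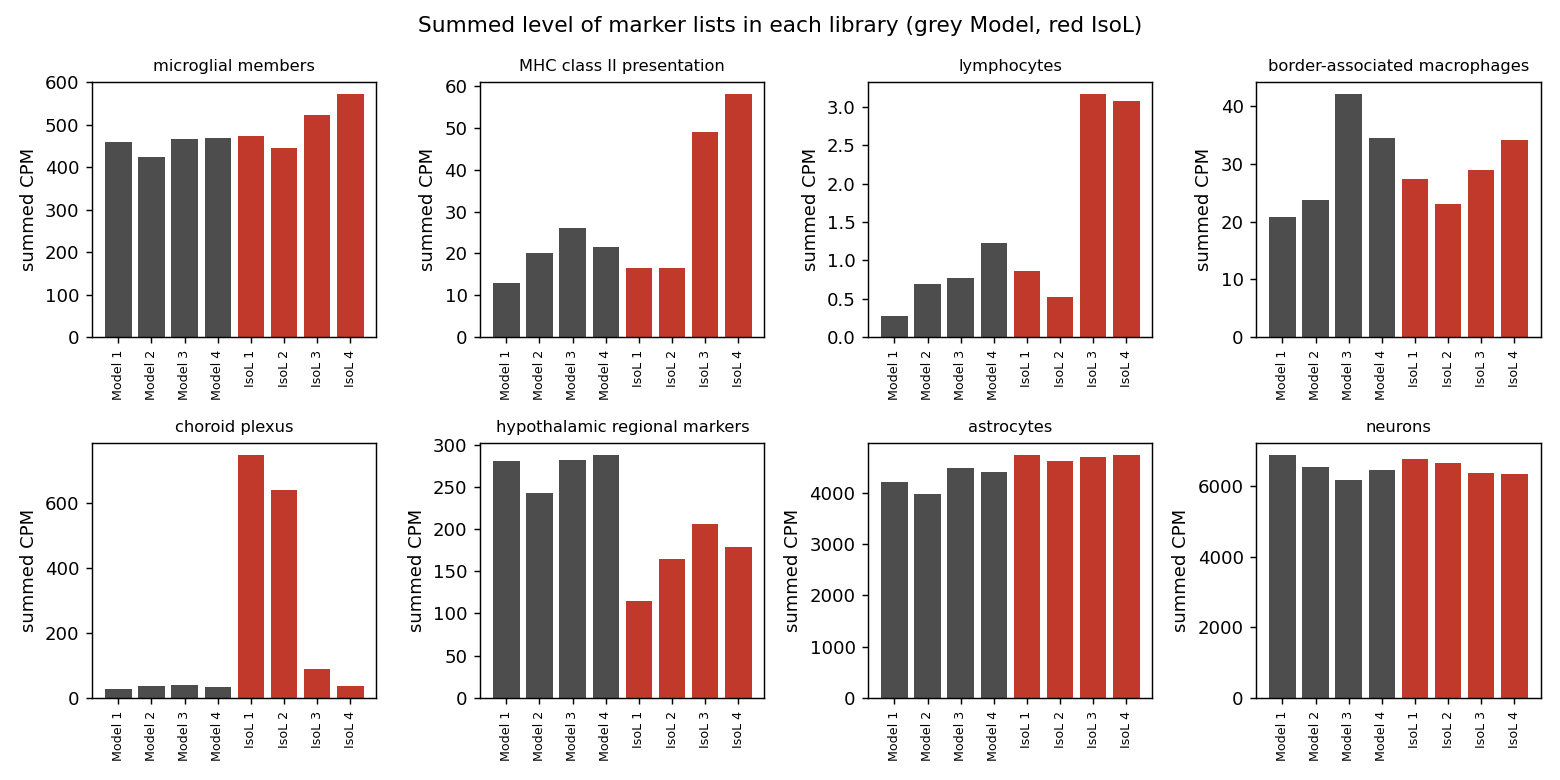
Summed CPM of 8 marker lists in each library, with grey bars for Model and red bars for IsoL. MHC class II and lymphocyte genes are high in IsoL 3 and 4 alone, choroid plexus genes in IsoL 1 and 2, and hypothalamic markers are lower in all IsoL libraries.

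The wider pathways around microglia held no gene called by edgeR with all 8 libraries either. Of 23 further microglial genes tested, 0 passed and 16 were above Model (median log2 change 0.098). Rnase4, a secreted ribonuclease, was below Model (log2 -0.65, edgeR adjusted p = 0.241). Of 19 ligands and other inputs of microglia, 0 passed. The Csf1r ligands Il34 and Csf1 had log2 changes of -0.12 and 0.074, the Cx3cr1 ligand Cx3cl1 one of -0.073, and Cd200, a neuronal protein that restrains microglia, was at 176 to 203 CPM in Model and 144 to 173 CPM in IsoL (log2 -0.21, edgeR adjusted p = 0.166).

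Among 12 complement genes tested 0 passed in edgeR. C3, the central component downstream of C1q, was at 1.33, 2.31, 2.50 and 2.65 CPM in Model and 3.93, 3.07, 4.30 and 5.5 CPM in IsoL, with no overlap (log2 0.94, SE 0.24, edgeR adjusted p = 0.117). By DESeq2 it passed, at an adjusted p of 0.0328, and by limma voom it did not, at 0.0778. Of 15 genes of DAP12 and Fc receptor signalling 0 passed, and Fyb, an adaptor of leukocytes, had the smallest p (log2 0.76, edgeR adjusted p = 0.178). Of the 17 tested genes raised in disease-associated microglia 0 passed in edgeR, 13 were above Model and 4 below (median log2 change 0.099). At an unadjusted edgeR p under 0.05, 5 of the 17 were above and 1 below, where 6.44% of all genes were above and 6.78% below. Gpnmb was led by few counts (log2 1.26, edgeR adjusted p = 0.195), and Cd9, a tetraspanin shared with oligodendrocytes, did not pass in edgeR with all 8 libraries (adjusted p = 0.285). It passed in limma voom (adjusted p = 0.0161) and in edgeR without Model 2 (adjusted p = 0.0187). Cst7, Itgax and Clec7a, which define that state, were each under 1 CPM in all libraries. Of 13 inflammatory cytokine and chemokine genes 4 were tested and 0 passed. Of these 4, 3 had an unadjusted edgeR p under 0.05 (2 above Model and 1 below), where 13.2% of all genes did. Their log2 changes ran from -0.37 to 0.91 (median 0.48). In 1 of them all IsoL libraries were above all Model libraries, against 4.04% of all genes. Among the 9 genes not tested, Il10 had 0 counts in all libraries, and Tnf, Il6, Il1b and Ccl2 had at most 6 counts in any of them. These low counts do not describe the 4 tested genes.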

How the data were processed

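For 8 libraries the authors deposited read counts of each gene, made with fastp 0.22.0, HISAT2 2.1.0 and HTSeq 0.9.1, per the submitters' processing notes. It also holds FPKM, which per the file headers are the authors' values; they matched the deposited counts, gene length and summed counts within 1.11e-09. The sources used here name no build, annotation or strand setting. The counts were tested here with edgeR 4.0.16 (R 4.3.3): filterByExpr kept 14536 genes, TMM scaling, robust quasi-likelihood F-test, Benjamini-Hochberg over all genes at 0.05. CPM use TMM-scaled summed counts. SE is the absolute log2 fold change over the square root of F. The fit was repeated without each library in turn, with a replicate block, without the low-count filter and with DESeq2's size factors, and the test replaced by DESeq2 1.42.0 or limma 3.58.1 voom with quality weights. On simulated data (14407 genes), the test recovered 42% of 50 genes changed 1.25-fold, 66% at 1.5-fold and 92% at 2-fold, with 7 false calls among 157. The changed genes were drawn from those with a mean above 50 counts, and no simulated library was made to stand apart. The real data gave 40 calls, so recovery there may be lower. No pair of libraries was a duplicate. The members and the 20 other lists were chosen with earlier results of these data known. Named are all members and up to 2 genes of each other list, by smallest p; other genes were named after their values were seen or because they define a cell type. Figures used matplotlib 3.10.9.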

Additional observations from a re-analysis of the deposited data

Results flagged for a closer look

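In 4 of 66 groups of 4 libraries checked (32 tested genes and their sum, in each group), 1 library lay far from the other 3; chance flags about 1 in 20 groups. All 4 were in Model. Cx3cr1 was at 37.0 CPM in Model 2 against 41.3 to 41.7 in the other 3, and Csf1r was at 48.2 CPM in Model 2 against 59.5 to 61.7. Trem2 was at 5.80 CPM in Model 1 against 3.96 to 4.28. Tyrobp was at 2.65 CPM in Model 4 against 4.82 to 4.89, on 39 counts.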

How the results depend on the processing

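No member was called with another scaling, filter, block or tool, or with 1 library left out, and the median log2 fold change of the members stayed between 0.0629 and 0.167. Each library left out in turn gave 6 to 146 called genes over all genes, 0 to 2 higher and 0 to 1 lower in the other lists, and 3 to 7 members above and 0 to 1 below without overlap. Over all genes, 74 were called with no filter, 17 with the replicate block, 311 in DESeq2 and 238 in limma voom, against 40. In the other lists 0 were called higher and 1 lower (Pmch); the lower count was 2 with no filter (Pmch and Nkx2-1) and 0 with the replicate block. DESeq2 called 6 higher (C3, Aqp4, Ttr, Folr1, Otx2 and F5) and 6 lower (Nkx2-1, Hmx2, Sim1, Otp, Hcrt and Pmch), and limma voom 1 higher (Cd9) and 4 lower (Nkx2-1, Hmx2, Fezf1 and Pmch). Without both IsoL 1 and IsoL 2, 1 member (Ctss) and 4 genes of the other lists were called higher and 0 lower. That fit was added after the data were seen, and 0.21% of all genes were called in it.

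Deviations of same-numbered libraries correlated weakly, at 0.0199 to 0.0696, and Model 1 correlated best with IsoL 2 (0.143). Model 1 and 2 correlated positively with IsoL 1 and 2, and Model 3 and 4 with IsoL 3 and 4 (0.0199 to 0.143). Model 1 and 2 correlated negatively with IsoL 3 and 4, and Model 3 and 4 with IsoL 1 and 2 (-0.139 to -0.0205). Deviations were taken from each group's own mean and cancel within it. Negative values must therefore accompany positive ones and are not a separate observation. The cause of the split between libraries 1 and 2 and libraries 3 and 4 was not tested. Signs turned in some genes, none of them called. In limma voom P2ry13 was -0.0092, Tyrobp 0.26, Sall1 -0.065, Irf8 -0.0301 and Cd53 0.11. With the replicate block Tyrobp was 0.015. Without both IsoL 1 and IsoL 2, Tyrobp was 0.0303, Siglech 0.12, Sall1 -0.0096 and Cd53 0.11. With a library left out the ranges were -0.0255 to 0.137 for P2ry13, -0.018 to 0.146 for Tmem119, -0.183 to 0.0567 for Tyrobp, -0.101 to 0.538 for Itgam, -0.0211 to 0.101 for Sall1, -0.101 to 0.129 for Cd68, -0.0825 to 0.15 for Irf8, -0.0824 to 0.298 for Slc2a5, -0.124 to 0.0837 for Cd53 and -0.0174 to 0.181 for Hpgds. The cause was not tested. With 4 libraries a group, changes of 1.5-fold or less are often missed and larger ones can be, so these genes are not shown to be equal.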
